A study of Mus musculus with 16 samples.

Results

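The trigeminal ganglion of wild-type mice was compared by RNA sequencing between E14, day 14 of gestation, and P25, day 25 after birth. All libraries labelled as wild type were taken, 8 of the 16 in the series: 4 from E14 and 4 from P25, each made from 1 ganglion. The other 8 libraries came from ganglia of Nogo-A knockout (KO) mice at the same 2 ages, 4 at each, and the question of the whole series was what loss of Nogo-A does to this ganglion. Wild-type animals carried no transgene and received no treatment according to the labels, and the sources used here give neither strain nor sex. At each age 4 wild-type animals were named as the source, so the 4 libraries of a group were treated as separate animals. Among the E14 wild-type libraries, replicates 2 and 4 carry the number 4 in their names, once with R and once with L. These 2 may be both ganglia of 1 animal. Replicates 1 and 3 of the E14 KO libraries likewise share a number, once with R and once with L. They may also come from 1 animal, and they were treated as separate animals throughout. All genes were described: 25719 had a row, and 15109 passed a filter on low counts and were tested.

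Sensory neurons of the face, mouth and cranial dura have their cell bodies in the trigeminal ganglion. Its neurons come from the neural crest and from placodes, while its glia come from the neural crest alone: satellite glia that wrap the cell bodies, and Schwann cells that wrap the axons. In the embryo the neurons leave the cell cycle, extend axons and compete for neurotrophins. After birth the axons myelinate and the neurons take on their lasting classes, such as cold-sensing, itch-sensing, peptide-containing pain-sensing and large mechanosensory neurons.

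The libraries held 16442312 to 29562379 estimated counts. Levels are given as CPM, a gene's counts relative to the library's total after TMM scaling, and a fold change as log2, P25 minus E14, with its standard error (SE). Genome-wide correlations of log levels ran from 0.935 to 0.991 among E14 ganglia, from 0.973 to 0.992 among P25 ganglia and from 0.806 to 0.854 between ages. E14 replicate 2 stood apart from the other E14 ganglia, which correlated at 0.985 to 0.991 among themselves. GC content and transcript length accounted for 19.2% to 59.0% of the variance between genes of a library's log deviations from its group mean in an E14 library and 6.68% to 42.6% in a P25 library. No batch, date or lane is named in the labels, so a batch that followed age cannot be told apart from age. The Y-linked gene Ddx3y had 0, 0.793, 0 and 8.89 CPM at E14 and 16.4, 16.7, 0 and 8.34 CPM at P25. Both ages thus held ganglia with and without its counts. Markers of the labelled tissue were present in all 8 ganglia: the sensory neuron factor Pou4f1 lay between 158 and 222 CPM, and the glial factor Sox10 averaged 402 ± 148 CPM at E14 and 308 ± 84.1 CPM at P25 (SD, n = 4 each; adjusted p = 0.24). Values written with ± are means and SDs over the 4 ganglia of an age. The p-values use a spread between ganglia that was estimated from all 16 libraries, KO included. A fold change in a whole ganglion cannot tell apart fewer cells of a type and less RNA per cell.

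Most genes differed between the 2 ages. At an adjusted p under 0.05, 4492 genes were higher and 4509 lower at P25, together 59.6% of the genes tested (29.7% higher and 29.8% lower). A test against a 2-fold change, used below as "past 2-fold", called 2077 genes higher and 1568 lower, 24.1% of the genes tested (13.7% higher, 10.4% lower). The median absolute log2 fold change over all genes was 0.77. The median was 3e-04, a value that TMM scaling sets near 0, and it was -0.0846 with library totals alone. Fitted changes of at least 16-fold numbered 539 upwards and 180 downwards. Of these, 99 rises had no counts over the E14 group and 23 falls had none over the P25 group, so their fitted sizes are not measured, and 346 rises and 125 falls had more than 3 counts over each group. The P25 libraries were deeper, at 23883486 to 29562379 counts against 16442312 to 20658599 at E14, and the part of depth in these counts was not tested. In 7590 genes, 50.2% of those tested, the 4 P25 ganglia did not overlap the 4 E14 ganglia. Large changes spread over the whole range of expression, and Mbp and Nefh, among the highest genes of the P25 ganglion, were among the strong rises.

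**Figure D1:**
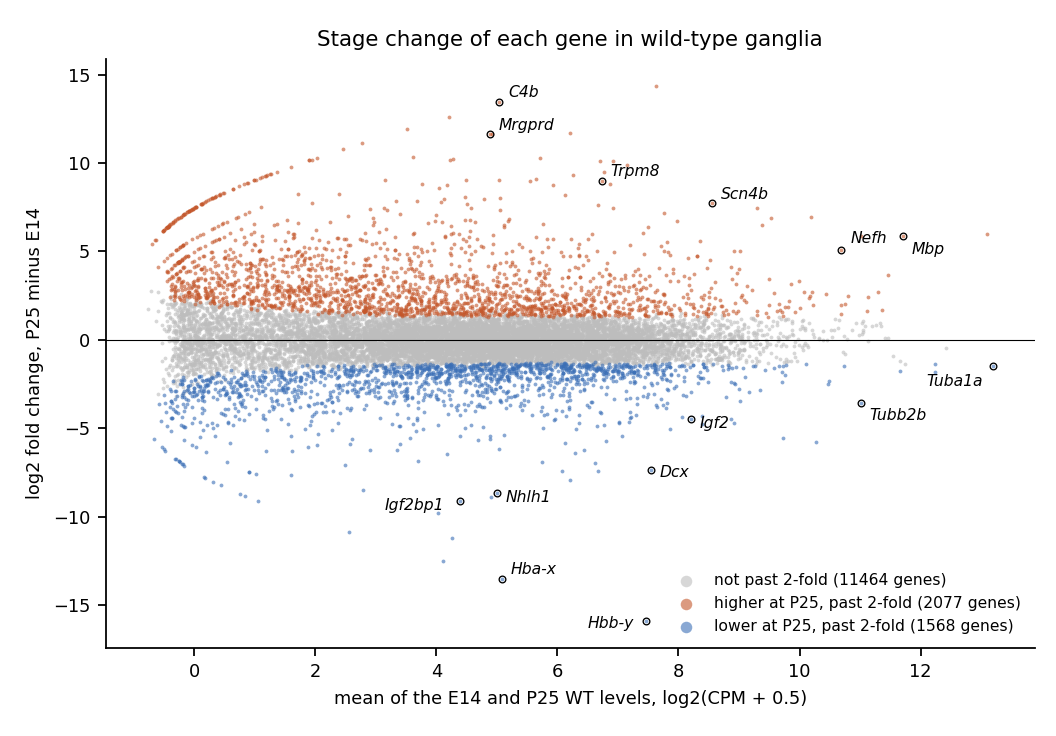
Each point is 1 of the 15109 genes tested, with its mean level over the E14 and P25 wild-type ganglia on the x axis, log2(CPM + 0.5), and its log2 fold change, P25 minus E14, on the y axis. The 2077 genes higher past 2-fold are orange, the 1568 lower past 2-fold are blue, the rest are grey, and 14 genes are circled, among them Mbp, Nefh and Trpm8 above 0 and Dcx, Nhlh1 and Hbb-y below it.

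The 10 largest rises among genes that averaged 10 CPM or more included Tmem233, the complement gene C4b, the itch receptor gene Mrgprd and the glial genes Myoc, Pmp2, Mobp and Gfap. Tmem233 (ENSMUSG00000079278), a small membrane protein, had 0, 0, 0.0569 and 0 CPM at E14 and 409, 394, 404 and 366 CPM at P25. This is 1 count over the 4 E14 ganglia against 40233 at P25, a ratio of 30910 (95% counting interval 5548 to 1221000), and the E14 count was in replicate 3. C4b, a complement component, had no counts at E14 and 54.95, 66.96, 73.6 and 62.7 CPM at P25, at least 1697-fold higher against a floor of 3 counts over the E14 group. Myoc, the secreted protein myocilin made by Schwann cells of some nerves, likewise had no counts at E14 and 21.96 ± 4.61 CPM (SD, n = 4) at P25, at least 578-fold higher. The itch and touch receptor gene Mrgprd and the myelin lipid carrier Pmp2 also belong to the 10 and are described with their groups. The oligodendrocyte gene Mobp and the glial filament gene Gfap, also among the 10, were near 0 in P25 replicate 3 and are given with the central glia genes.

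The 10 largest falls included Hbb-y, Trh, Nhlh1, Igf2bp1 and Tunar. Hbb-y (ENSMUSG00000052187), the embryonic beta-type globin, had 325, 391, 242 and 443 CPM at E14 and no counts at P25, at least 12090-fold lower. Trh, the precursor of thyrotropin-releasing hormone, had 35.2, 43.6, 30.6 and 24.5 CPM at E14 and no counts in any P25 ganglion, at least 1119-fold lower. Nhlh1, a helix-loop-helix factor of newborn neurons, had 49.7, 79.3, 79.7 and 42.7 CPM at E14 and 0.0403, 0.0843, 0.287 and 0.155 CPM at P25, a change of -8.697 on the log2 scale (SE 0.47, adjusted p = 6.34e-12) and of -9.30 without P25 replicate 3. Igf2bp1, an RNA-binding protein of fetal tissue, fell from 41.03 ± 11.4 to 0.0715 ± 0.0623 CPM, and the long noncoding RNA Tunar fell from 58.7 ± 12.8 to 0.113 ± 0.0866 CPM. In each of these genes every P25 ganglion lay below every E14 ganglion.

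Most sensory neurogenesis factors fell. Of 26 transcription factors of sensory neurogenesis tested, 16 fell and 1 rose, beside 29.8% and 29.7% of all genes tested. Their median log2 fold change was -0.97, beside 3e-04 for all genes, and the counts and medians of the other lists compare with the same shares and the same value. Members too low to be tested are left out of these counts, so a list of low genes is counted through the age where it is high. Sox11, a factor of immature neurons, had 139, 92.6, 242 and 140 CPM at E14 and 6.08, 3.96, 4.31 and 3.86 CPM at P25, a change of -5.07 on the log2 scale (SE 0.34, adjusted p = 1.60e-10). Isl1, which pairs with Pou4f1 in sensory neuron specification, fell from 155 ± 57.8 to 52.2 ± 4.71 CPM, while Pou4f1 itself had 158, 193, 222 and 169.9 CPM at E14 and 184, 172, 196 and 164 CPM at P25. The Pou4f1 groups overlapped and its log2 fold change was -0.05 (SE 0.16, adjusted p = 0.8). Without E14 replicate 3 it was 0.11. Six4 was the factor that rose, from 12.2 ± 1.92 to 39.99 ± 7.67 CPM. Among 15 factors that mark sensory classes, 4 rose and 5 fell, near the shares of all genes. Esrrg, a nuclear receptor, rose from 1.11 ± 0.691 to 21.5 ± 5.402 CPM, and Etv1 rose from 3.96 ± 1.58 to 22.2 ± 4.94 CPM. Etv4 fell, from 69.2 ± 19.6 to 7.71 ± 1.79 CPM.

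Cytoskeletal genes of growing neurites fell, and neurofilament genes of mature axons rose. Of 18 cytoskeletal genes of growing neurites, 15 fell and 2 rose (median -2.27). Dcx (ENSMUSG00000031285), doublecortin, a microtubule protein of migrating and growing neurons, had 337, 143, 582 and 414 CPM at E14 and 1.77, 3.24, 2.404 and 1.39 CPM at P25, a change of -7.39 on the log2 scale (SE 0.47, adjusted p = 5.97e-11). Gap43, the growth cone protein, fell from 452 ± 155 to 89.9 ± 26.9 CPM, and the alpha-internexin gene Ina fell from 644 ± 203 to 23.7 ± 2.61 CPM. Map1b and the progenitor filament gene Nes were the 2 that rose; Map1b rose from 996 ± 617 to 2205 ± 975 CPM, a call lost with the replicate number as a block (adjusted p = 0.082), with library totals alone (0.086), and without E14 replicate 1 (0.095), E14 replicate 2 (0.092), P25 replicate 1 (0.064), P25 replicate 2 (0.064) or P25 replicate 3 (0.11). Of 15 neurofilament, mature microtubule and axonal motor genes, 8 rose and 2 fell (median 0.93). Nefh (ENSMUSG00000020396), the heavy neurofilament subunit of large-calibre axons, had 96.1, 86.7, 93.6 and 103 CPM at E14 and 3171, 3214, 3374 and 3088 CPM at P25, a change of 5.08 on the log2 scale (SE 0.18, adjusted p = 2.46e-14). Its values were tight within each age, and every P25 ganglion lay far above every E14 ganglion. The light subunit Nefl rose less, from 1749 ± 588 to 3399.5 ± 711 CPM. Peripherin (Prph), a filament of small-diameter and growing neurons, and tau (Mapt) fell, with log2 fold changes of -0.94 and -1.498. The axonal kinesin Kif5a was one of the 5 most abundant genes whose 95% interval of the log2 fold change lay within 0.5 of 0: it averaged 1413 ± 86.5 CPM at E14 and 1565 ± 284 CPM at P25. The chaperone genes Hspa8 and Hsp90ab1 were in the same class, at 2715 ± 558 and 2944 ± 244 CPM, and at 2628 ± 186 and 2836 ± 274 CPM.

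**Figure D2:**
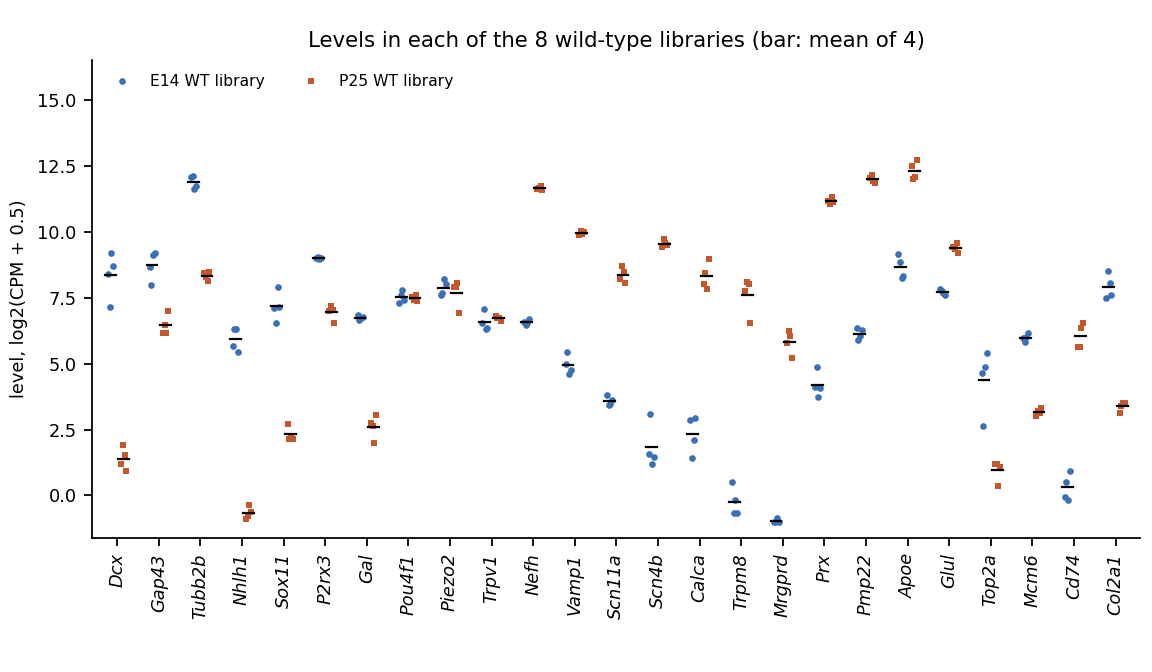
Levels of 25 genes, log2(CPM + 0.5) on the y axis, in each of the 4 E14 (blue circles) and 4 P25 (orange squares) wild-type ganglia, with a bar at the mean of each group. Nefh, Scn4b, Trpm8 and Prx lie higher at P25 and Dcx, Nhlh1 and Gal lower in every ganglion, while the groups overlap for Pou4f1, Piezo2 and Trpv1.

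Voltage-gated sodium channel genes, which set the threshold and shape of the action potential, split by subunit. Of 14 tested, 8 rose and 4 fell (median 1.42). Scn4b, a beta subunit that supports rapid repetitive firing, had 2.48, 7.93, 1.76 and 2.23 CPM at E14 and 679.6, 851, 753 and 721 CPM at P25, a change of 7.73 on the log2 scale (SE 0.43, adjusted p = 9.82e-12). Its highest E14 value was in replicate 2, and without that library the log2 fold change was 8.43. Scn11a, the Nav1.9 channel of pain-sensing neurons, had 13.6, 10.4, 10.5 and 11.7 CPM at E14 and 294, 420, 356 and 267 CPM at P25, a change of 4.86 on the log2 scale (SE 0.21, adjusted p = 2.72e-13). Scn10a, the Nav1.8 channel, rose from 391 ± 122 to 1189 ± 311 CPM. Scn3a, the embryonic Nav1.3 channel, went the other way, with 17.1, 5.12, 35.5 and 35.01 CPM at E14 and 1.57, 2.36, 2.12 and 0.386 CPM at P25, a change of -3.85 on the log2 scale (SE 0.52, adjusted p = 3.14e-06). All P25 values of Scn3a lay below all E14 values, and E14 replicate 2 had the lowest E14 value.

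Of 31 potassium and HCN channel genes, 22 rose and 4 fell (median 1.75), and of 15 calcium channel subunits, 4 rose and 8 fell (median -0.52). Kcnk18, the two-pore channel TRESK that dampens excitability of trigeminal neurons, rose from 0.315 ± 0.163 to 32.99 ± 10.04 CPM. Kcng4, a silent subunit that modifies Kv2 channels, rose from 0.381 ± 0.3104 to 65.2 ± 9.01 CPM, with a log2 change of 7.33 and of 8.09 without E14 replicate 1. The juxtaparanodal channel Kcna2 rose from 74.8 ± 32.98 to 339 ± 87.8 CPM. Among calcium channels, Cacna1h, a T-type channel, fell from 539 ± 338 to 99.2 ± 27.7 CPM and Cacna1e, an R-type channel, from 77.03 ± 34.2 to 5.65 ± 1.81 CPM. The T-type channel Cacna1i rose, from 2.12 ± 1.09 to 17.5 ± 4.24 CPM, so T-type channels did not move together.

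Channels that transduce touch, temperature and chemical stimuli divided into late, early and level genes: of 14 tested, 7 rose and 4 fell (median 0.35). Trpm8 (ENSMUSG00000036251), the cold and menthol sensor, had 0.917, 0.122, 0.398 and 0.131 CPM at E14 and 216, 273, 262 and 91.9 CPM at P25, a change of 9.01 on the log2 scale (SE 0.47, adjusted p = 3.94e-12). Without E14 replicate 1, its highest E14 value, the log2 fold change was 9.97. Trpa1, the irritant sensor, rose from 0.207 ± 0.191 to 30.6 ± 7.59 CPM, a log2 change of 7.06 and of 7.76 without E14 replicate 4. P2rx3, an ATP-gated channel of pain-sensing and taste neurons, fell: it had 517, 530, 500.4 and 509 CPM at E14 and 127, 145, 132 and 92.6 CPM at P25, a change of -2.05 on the log2 scale (SE 0.15, adjusted p = 5.54e-10). Trpv1, the heat and capsaicin sensor, had 92.98, 133, 79.1 and 80.1 CPM at E14 and 111, 107, 105 and 98.6 CPM at P25, and these values overlapped, with a log2 change of 0.13 (SE 0.17, adjusted p = 0.53). Without E14 replicate 2, which had the highest E14 value, it was 0.33 with an adjusted p of 0.039. Piezo2, the main mechanosensor of touch neurons, also overlapped: it had 193, 207, 296 and 259 CPM at E14 and 237, 239, 266 and 121 CPM at P25, a log2 change of -0.15 (SE 0.27, adjusted p = 0.66). The related channel Piezo1, better known from vessels, fell from 31.2 ± 14.4 to 9.397 ± 2.75 CPM.

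Of 19 neuropeptide and dense-core vesicle genes, 14 rose and 3 fell (median 1.51). Calca (ENSMUSG00000030669), the CGRP precursor and a main vasodilator peptide of trigeminal neurons, had 6.74, 2.196, 3.81 and 7.098 CPM at E14 and 258, 351, 224 and 502 CPM at P25, a change of 6.05 on the log2 scale (SE 0.37, adjusted p = 4.02e-11). Tac1, the substance P precursor, rose from 10.4 ± 3.28 to 77.8 ± 24.8 CPM. Gal, the galanin precursor, had 115, 99.2, 105 and 109.8 CPM at E14 and 6.16, 5.65, 3.52 and 7.84 CPM at P25, a change of -4.21 on the log2 scale (SE 0.25, adjusted p = 2.13e-11). Penk, the enkephalin precursor, fell from 18.4 ± 4.07 to 1.01 ± 0.3898 CPM. Adcyap1, the PACAP precursor, averaged 42.7 ± 7.41 CPM at E14 and 38.2 ± 5.91 CPM at P25 (adjusted p = 0.41). Thus the peptide genes did not share 1 direction.

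Of 18 opioid, cannabinoid, serotonin, itch and CGRP receptor genes, 12 rose and 2 fell (median 1.31). Mrgprd, the receptor that marks one class of skin pain and itch neurons, had 0, 0, 0.0569 and 0 CPM at E14 and 54.5, 75.2, 65.7 and 37.1 CPM at P25. That is 1 count against 5929, a ratio of 4555 (95% counting interval 817 to 180000), and the E14 count was in replicate 3. Mrgpra3, which marks another itch class, had no counts at E14 and 3.62 ± 0.933 CPM at P25, at least 94.2-fold higher. Htr1d, a target of the triptan drugs, rose from 7.55 ± 1.22 to 70.9 ± 9.59 CPM, and the mu opioid receptor Oprm1 rose from 1.28 ± 0.596 to 4.15 ± 2.42 CPM. The bradykinin receptor Bdkrb2 fell, from 78.2 ± 30.8 to 11.4 ± 1.2 CPM.

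Of 18 neurotrophic factors and receptors, 6 rose and 3 fell (median 0.14), beside 29.7% higher and 29.8% lower among all genes, so the number that rose was near the share of all genes. Gfra3, the artemin receptor, had 227, 315, 209 and 179 CPM at E14 and 61.9, 67.3, 63.8 and 64.6 CPM at P25, a change of -1.85 on the log2 scale (SE 0.17, adjusted p = 9.43e-09). Its values at P25 lay within a narrow range, below every E14 value. Ret, the receptor kinase of the GDNF family, rose from 810 ± 204 to 1309.8 ± 167 CPM, and Ntrk2, the BDNF receptor, rose from 124 ± 17.1 to 217 ± 32.1 CPM. Cntf, a cytokine made by myelinating Schwann cells, rose from 0.153 ± 0.0999 to 43.04 ± 11.5 CPM, the largest log2 fold change among these 18 (8.09, SE 0.41).

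Of 28 synaptic vesicle and release genes, 16 rose and 3 fell (median 1.11), and of 24 GABA-A, glutamate and glycine receptor subunits, 11 rose and 5 fell (median 0.74). Vamp1, a vesicle SNARE, rose from 31.002 ± 8.23 to 999 ± 52.4 CPM, and the plasma membrane SNARE Snap25 from 59.6 ± 27.1 to 520 ± 50.8 CPM. Slc17a7, the vesicular glutamate transporter VGLUT1, rose from 28.01 ± 10.2 to 449 ± 34.4 CPM, while Stx1a, a syntaxin, fell from 180.5 ± 57.98 to 42.4 ± 3.88 CPM. The kainate receptor subunit Grik1 rose from 14.9 ± 5.01 to 140.4 ± 15.4 CPM. The glycine receptor subunit Glra2 fell, from 2.01 ± 1.21 to 0.161 ± 0.132 CPM.

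Of 33 axon guidance genes, 20 fell and 3 rose (median -0.85). Ephb2, a receptor for B-type ephrins, fell from 199.6 ± 67.8 to 11.1 ± 1.61 CPM, the semaphorin receptor Plxna3 fell from 373 ± 193 to 27.2 ± 4.85 CPM, and Nrp1, a semaphorin and VEGF co-receptor, fell from 194 ± 119 to 30.002 ± 5.46 CPM. Of 14 genes for ligands, receptors and co-receptors of the Nogo system, 6 rose and 5 fell (median 0.27). Rtn4, the gene that encodes Nogo-A and the shorter Nogo-B and Nogo-C, had 328, 144, 521 and 444 CPM at E14 and 494, 542, 512 and 406 CPM at P25, a log2 change of 0.44 (SE 0.26, adjusted p = 0.16). Without E14 replicate 3 it was 0.72 with an adjusted p of 0.031. This gene total does not separate Nogo-A from the shorter forms, so it checks nothing about the KO labels. The receptor Rtn4r fell from 30.98 ± 13.1 to 17.2 ± 3.58 CPM and its co-receptor Lingo1 from 209 ± 64.3 to 132 ± 16.1 CPM. The myelin ligand Mag, which binds the same receptor, rose from 8.63 ± 2.04 to 148 ± 26.1 CPM.

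Of 19 genes of intrinsic apoptosis, 10 fell and 4 rose (median -0.54), with 2 higher without P25 replicate 1. Hrk, a BH3-only killer protein induced when neurons lack nerve growth factor, had 34.6, 80.4, 52.5 and 41.2 CPM at E14 and 1.37, 1.52, 2.05 and 1.89 CPM at P25, a change of -4.92 on the log2 scale (SE 0.31, adjusted p = 6.17e-11). The apoptosome gene Apaf1 fell from 20.5 ± 6.54 to 5.15 ± 1.14 CPM. The anti-apoptotic gene Bcl2l2 rose, from 31.5 ± 4.71 to 128 ± 10.9 CPM. Killer genes did not all fall: the list's highest log2 fold change, 5.24, was that of Pmaip1, another BH3-only gene. Pmaip1 did not meet the rules for named genes, and its levels are not given here. Among 22 neuronal splicing and RNA-binding factors, 5 rose and 10 fell, beside 29.7% and 29.8% of all genes. Mbnl1 and Mbnl2, muscleblind factors that favour adult splice forms, rose from 11.9 ± 6.604 to 89.5 ± 19.98 CPM and from 32.5 ± 18.3 to 133 ± 29.4 CPM. Celf5 fell from 79.5 ± 32.3 to 6.25 ± 1.87 CPM, and Ptbp1, a repressor of neuronal exons, fell from 215 ± 75.1 to 51.2 ± 6.53 CPM.

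Peripheral myelin genes rose without exception in this list: 20 of 20 were higher and past 2-fold (median 5.87), beside 13.7% of all genes in that direction. Mbp (ENSMUSG00000041607), myelin basic protein, had 118, 129.6, 93.5 and 115 CPM at E14 and 7043, 6608, 5575 and 7006 CPM at P25, a change of 5.85 on the log2 scale (SE 0.203, adjusted p = 2.46e-14). Prx, periaxin of mature Schwann cells, had 16.7, 28.7, 12.8 and 16.2 CPM at E14 and 2282, 2150.3, 2559 and 2238 CPM at P25, a change of 6.96 on the log2 scale (SE 0.29, adjusted p = 2.04e-13). Together the 20 genes went from 0.068% to 0.086% of all counts at E14 to 3.01% to 3.37% at P25. Egr2, the transcription factor that drives myelination, had 0.5502, 0.976, 0.284 and 0.482 CPM at E14 and 32.7, 32.4, 43.5 and 26.5 CPM at P25, a change of 5.89 on the log2 scale (SE 0.37, adjusted p = 6.79e-11). The tight junction gene Cldn19 rose from 0.286 ± 0.194 to 284 ± 31.7 CPM, and Pllp, plasmolipin, rose from 0.203 ± 0.224 to 239.9 ± 31.1 CPM, a log2 change of 10.09 and of 11.35 without E14 replicate 4. Pmp2 had 2 counts over the E14 group and 3810 at P25, a ratio of 1464 (95% counting interval 405 to 12090). Sox10, which all of these glia express, was not called.

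Genes known from central glia, whose myelin shares some of these proteins, were also high in some P25 ganglia. Of 10 oligodendrocyte and astrocyte genes, 8 rose (median 6.30, or 5.53 with the genes at 0 at their lower bounds). Their summed level was 25.8, 32.8, 26.8 and 25.8 CPM at E14 and 263, 131, 26.7 and 319 CPM at P25, so P25 replicate 3 lay at the E14 level. Mobp, a myelin gene of oligodendrocytes, had no counts at E14 and 56.97, 16.98, 1.29 and 68.8 CPM at P25, at least 931-fold higher over the group. Mog, another oligodendrocyte gene, had 5.92, 2.28, 0 and 10.9 CPM at P25. Gfap had 0, 0.122, 0 and 0.175 CPM at E14 and 153, 78.5, 0.933 and 182 CPM at P25. P25 replicate 3, the ganglion nearly without these transcripts, had the highest summed peripheral myelin level of the 4: the sums were 817, 896, 636 and 716 CPM at E14 and 34525, 33888, 35724 and 30826 CPM at P25. Single myelin genes differed in this: by the values given above, Mbp was lowest and Prx highest in P25 replicate 3.

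Node and paranode genes rose with myelin, 10 of 15 against 2 that fell (median 1.64). The paranodal axon gene Cntnap1 rose from 80.5 ± 49.5 to 482 ± 119 CPM, and Gldn, the Schwann cell protein gliomedin that gathers sodium channels at the node, rose from 0.561 ± 0.143 to 36.2 ± 10.1 CPM. Nfasc, neurofascin, rose from 155 ± 49.2 to 485 ± 158 CPM. Cntn2, which holds juxtaparanodes but is also an adhesion protein of growing axons, fell from 2389 ± 1123 to 469 ± 83.6 CPM. Of 16 satellite glia genes, 11 rose and 3 fell (median 1.84). The number lower was 0 without E14 replicate 4, and 1 without E14 replicate 1, E14 replicate 3 or P25 replicate 2. Apoe, a lipid carrier, had 578, 469, 306 and 317 CPM at E14 and 5829, 4076, 4282 and 6773 CPM at P25, a change of 3.65 on the log2 scale (SE 0.26, adjusted p = 2.90e-10). The potassium channel Kcnj10, which clears potassium around the neuron, rose from 12.8 ± 1.64 to 86.4 ± 17.1 CPM, the glutamine synthetase gene Glul from 210.4 ± 14.8 to 675 ± 76.2 CPM and the adhesion gene Hepacam from 0.738 ± 0.415 to 67.6 ± 14.7 CPM. Apoe, Kcnj10, Glul and Hepacam are also made by astrocytes, and the summed level of the list was 1920.3, 1513, 1716 and 1769.7 CPM at E14 and 9804, 8202, 8404 and 10997 CPM at P25. P25 replicate 3, with central glia genes at the E14 level, lay at 8404 CPM in that sum, above all E14 ganglia.

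Most precursor and Notch pathway genes of the glial lineage fell. Of 17 neural crest and Schwann cell precursor genes, 11 fell and 3 rose (median -1.08), and of 17 Notch pathway genes, 12 fell and none rose (median -1.01). The precursor genes Cdh19 and Sox8 were among the 3 that rose. Cdh19 rose from 2.43 ± 1.16 to 8.67 ± 1.81 CPM, past 2-fold, and Sox8 had the list's highest log2 fold change, 1.88. The crest factor Tfap2a fell from 27.8 ± 6.76 to 3.18 ± 0.946 CPM, and the receptors Notch1 and Notch3 fell from 247 ± 111 to 57.4 ± 19.5 CPM and from 106 ± 47.004 to 12.8 ± 3.85 CPM. Notch3 is also a mural cell gene. The lipid carrier Apod, a gene of non-myelinating Schwann cells and fibroblasts, rose from 14.4 ± 4.02 to 1311 ± 377 CPM. Genes of cholesterol and fatty acid synthesis did not move as 1 block, with 14 of 29 higher and 5 lower (median 0.38). The desaturase Scd1 rose from 71.4 ± 9.44 to 701 ± 148 CPM, while fatty acid synthase (Fasn) fell from 2519.6 ± 963 to 898 ± 213 CPM.

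**Figure D3:**
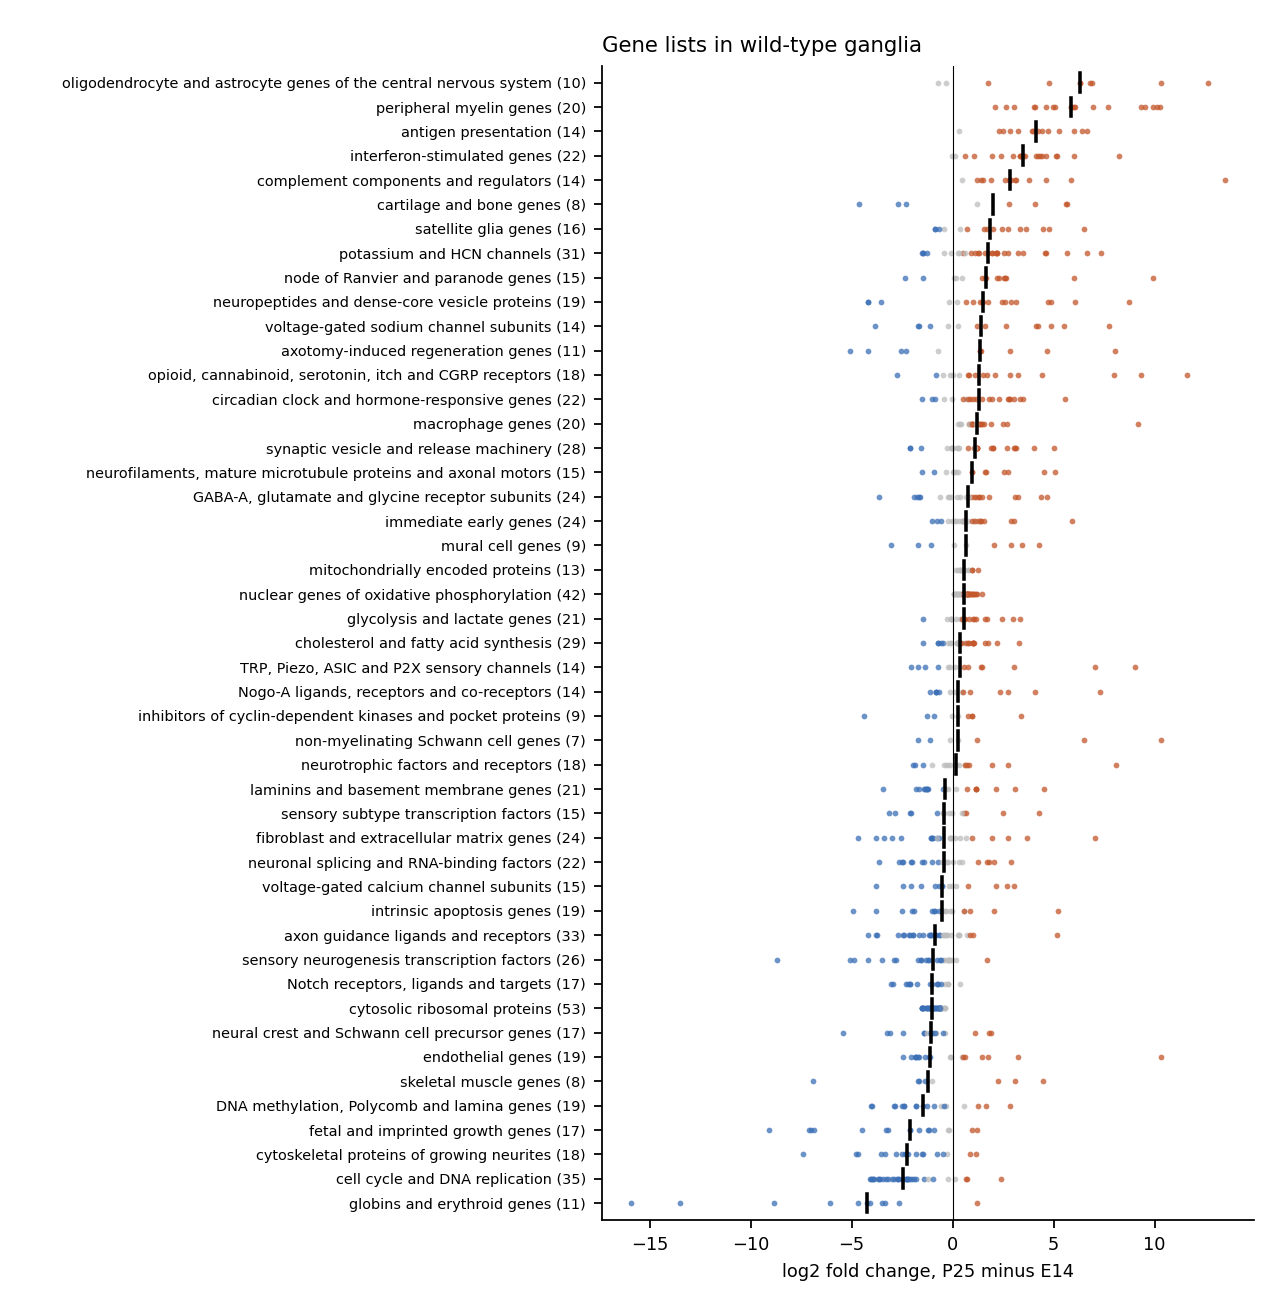
Log2 fold changes, P25 minus E14 (x axis), of the tested members of each gene list with at least 7 tested members (rows, number tested in brackets, sorted by median). Points are genes, orange where higher and blue where lower at an adjusted p under 0.05 and grey otherwise, and the black bar is the median. Central glia, peripheral myelin and antigen presentation lists lie at the top, and the globin, cell cycle and growing neurite lists at the bottom.

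Cell cycle genes fell: of 35 tested, 29 were lower, 27 of them past 2-fold, and 3 were higher (median -2.46). Top2a (ENSMUSG00000020914), the topoisomerase of dividing cells, had 24.8, 5.67, 28.9 and 42.2 CPM at E14 and 1.77, 1.81, 0.789 and 1.58 CPM at P25, a change of -4.096 on the log2 scale (SE 0.43, adjusted p = 1.00e-07). E14 replicate 2 had the lowest E14 value, still above all P25 values. The mitotic kinase Cdk1 fell from 11.9 ± 2.72 to 1.47 ± 0.531 CPM and the cyclin Ccnb1 from 8.32 ± 1.86 to 0.511 ± 0.226 CPM. Mki67, the common marker of dividing cells, fell from 3.94 ± 2.77 to 0.801 ± 0.417 CPM, but its groups overlapped. The factor E2f1 and the cyclin Ccnd1 were among the 3 that rose, E2f1 from 8.17 ± 2.03 to 43.3 ± 4.89 CPM and Ccnd1 from 29.8 ± 2.71 to 48.6 ± 4.75 CPM. The brake Cdkn1c, an imprinted inhibitor of cyclin-dependent kinases, fell from 281 ± 58.7 to 13.3 ± 1.798 CPM, while Cdkn1a and Cdkn1b rose, with log2 fold changes of 0.95 and 0.96. The summed cell cycle level was 603, 632, 511 and 653 CPM at E14 and 240, 227, 213 and 226 CPM at P25.

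Promoters of these genes were searched for 2 short motifs known from genes active in dividing cells, the CCAAT box bound by NF-Y and the cell cycle homology region TTTGAA bound by the DREAM complex. Promoters came from RefSeq (GRCm38.p6), and 250 bases upstream of the start were searched on both strands. Of the 35 genes, 28 had a promoter there. CCAAT was present in 23 of them (82.1%), against 35.9% of the 11448 genes tested that had a promoter and 34.5% of all 27025 promoters. TTTGAA was present in 8 of the 28 (28.6%), against 10.3% of genes tested and 16.3% of all promoters, and both motifs in the same 8, against 3.99% and 5.73%. Among other genes lower past 2-fold, CCAAT was present in 37.7% and TTTGAA in 10.4%, near the shares of all genes tested. A match of letters describes the sequence and does not show binding. The 150 bases upstream of 4 genes of this list that hold both motifs there, Top2a, Cdk1, Ube2c and Cdc20 (the last 2 chosen after their values were seen), are shown 5′ to 3′ on the gene's strand, with CCAAT (or ATTGG on the other strand) and TTTGAA (or TTCAAA) in capitals.
Top2a (chr11:99024190-99024339, minus strand): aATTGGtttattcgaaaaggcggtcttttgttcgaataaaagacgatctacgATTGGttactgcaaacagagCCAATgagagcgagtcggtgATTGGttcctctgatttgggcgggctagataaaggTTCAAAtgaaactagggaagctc
Cdk1 (chr10:69352913-69353062, minus strand): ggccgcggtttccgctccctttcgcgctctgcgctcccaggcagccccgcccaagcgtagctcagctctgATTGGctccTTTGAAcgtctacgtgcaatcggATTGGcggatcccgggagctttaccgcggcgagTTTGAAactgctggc
Ube2c (chr2:164769779-164769928, plus strand): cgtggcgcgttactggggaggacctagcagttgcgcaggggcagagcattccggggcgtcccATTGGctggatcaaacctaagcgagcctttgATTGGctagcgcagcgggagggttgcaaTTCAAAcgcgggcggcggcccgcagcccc
Cdc20 (chr4:118437344-118437493, minus strand): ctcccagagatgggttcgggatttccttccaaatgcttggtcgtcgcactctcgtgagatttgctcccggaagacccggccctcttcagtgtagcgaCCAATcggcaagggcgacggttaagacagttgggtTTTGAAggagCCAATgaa

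Fetal growth genes and chromatin writers fell as well. Of 17 fetal and imprinted growth genes, 13 fell and 2 rose (median -2.10). Igf2, the fetal growth factor, had 528, 541, 608 and 573 CPM at E14 and 39.7, 19.3, 17.3 and 24.4 CPM at P25, a change of -4.48 on the log2 scale (SE 0.37, adjusted p = 3.22e-09). Hmga2, a chromatin protein of fetal stem cells, fell from 10.2 ± 3.66 to 0.0689 ± 0.0521 CPM. Of 19 DNA methylation, Polycomb and lamina genes, 13 fell and 3 rose (median -1.49). The DNA methyltransferase Dnmt3a, which methylates new sites, fell from 111 ± 19.5 to 31.7 ± 8.05 CPM, Uhrf1, which helps to copy methylation when DNA replicates, from 37.4 ± 9.77 to 2.37 ± 0.823 CPM, and the Polycomb methyltransferase Ezh2 from 11.8 ± 4.301 to 2.08 ± 0.705 CPM. Ezh1, a Polycomb member of non-dividing cells, rose from 25.7 ± 8.03 to 79.7 ± 8.23 CPM, and Cbx7, another Polycomb member, from 6.102 ± 3.91 to 43.9 ± 5.68 CPM.

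Cytosolic ribosomal protein genes fell: 48 of 53 were lower, none higher, and 5 were past 2-fold. Their log2 fold changes ran from -1.54 to -0.36 (median -1.01). The 4 E14 ganglia had 23751, 19184, 16649 and 22496 CPM in these genes and the 4 P25 ganglia 9518, 9440.4, 7869 and 14481 CPM, so P25 replicate 4 was the highest P25 ganglion and the 2 ages did not overlap. Rpl18 fell from 345 ± 47.5 to 119 ± 60.1 CPM. Many ribosomal proteins have processed pseudogene copies, and the sources used here do not say how reads were divided among them. Nuclear genes of oxidative phosphorylation had 25 of 42 higher, none lower and 17 not called, with 1 past 2-fold (median 0.55; 0.14 in KO ganglia). Their summed levels were 8350.3, 7993, 6035 and 7348 CPM at E14 and 9220.4, 9759.9, 8168 and 12650.1 CPM at P25. These sums overlapped, and P25 replicate 4, also the highest P25 ganglion in ribosomal genes, lay above the rest. Ndufb3, a complex I subunit, rose from 24.8 ± 4.23 to 68.6 ± 8.25 CPM and Ndufa5 from 24.5 ± 6.39 to 55.9 ± 15.2 CPM. Of 13 mitochondrially encoded genes, 3 were higher (median 0.57), and 0 were without P25 replicate 1. They summed to 5637, 1925, 7698 and 8629 CPM at E14 and 11981, 10196, 10387 and 7726 CPM at P25. The ages overlapped in these sums, and E14 replicate 2 was the lowest. Of 21 glycolysis and lactate genes, 13 rose and 1 fell (median 0.55). Ldhb, the lactate dehydrogenase subunit of oxidative tissue, rose from 164 ± 30.8 to 881 ± 169 CPM.

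Of 22 clock and hormone-responsive genes, 16 rose and 3 fell (median 1.29). Klf9, a target of thyroid hormone and glucocorticoids, rose from 0.884 ± 0.7798 to 42.9 ± 4.61 CPM, a log2 change of 5.58 and of 6.18 without E14 replicate 3. The clock output factor Dbp rose from 5.75 ± 2.18 to 28.01 ± 7.94 CPM, while the clock repressor Cry1 fell from 25.6 ± 3.81 to 9.07 ± 1.47 CPM. The hour of dissection is not stated in the labels, and its part in these values was not tested.

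Immune genes rose over a wide range. Of 20 macrophage genes, 15 rose, 5 were higher past 2-fold and none fell (median 1.20). Of 14 antigen presentation genes, 13 rose and none fell, all 13 past 2-fold (median 4.12). Csf1r, the receptor that macrophages need to live, rose from 26.9 ± 5.78 to 68.1 ± 3.88 CPM, and C1qa, a complement subunit made by macrophages, from 17.4 ± 5.304 to 65.9 ± 8.73 CPM. The scavenger receptor Cd163 had no counts at E14 and 3.26 ± 0.554 CPM at P25, at least 85.8-fold higher. Aif1, another macrophage gene, was not called: it averaged 1.28 ± 0.373 CPM at E14 and 1.72 ± 0.398 CPM at P25 (adjusted p = 0.34). Cd74, the chaperone of MHC class II, rose from 0.793 ± 0.467 to 67.7 ± 22.3 CPM, and the class I heavy chain H2-K1 from 2.13 ± 1.19 to 82.6 ± 14.5 CPM. Class I genes have near-identical copies and differ between mouse strains, so the share of reads given to H2-K1 is uncertain. B2m, the light chain of class I, has a sequence of its own and rose from 20.6 ± 6.34 to 115 ± 13.5 CPM. The summed levels of the macrophage genes were 193, 149.9, 125 and 177 CPM at E14 and 391, 427, 370.2 and 460.3 CPM at P25. Genes of lymphocytes, neutrophils and mast cells stayed low, with a summed level of at most 0.83 CPM at E14 and 7.71 to 12.4 CPM at P25, and their part in the rise of class II genes was not tested. Of 14 complement genes, 13 rose and 10 were past 2-fold (median 2.84). C1s1, a classical pathway protease, rose from 0.327 ± 0.314 to 18.7 ± 2.52 CPM and C3 from 1.76 ± 0.546 to 5.02 ± 1.28 CPM.

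Interferon-stimulated genes rose in 20 of 22, 18 past 2-fold (median 3.46). One P25 ganglion, replicate 2, was higher than the others. Ifit3, an antiviral gene, had 1.1004, 0, 0.398 and 1.095 CPM at E14 and 4.43, 50.6, 4.49 and 6.99 CPM at P25, a log2 change of 4.598 (SE 0.76, adjusted p = 3.17e-05), and of 3.01 without P25 replicate 2. Isg15, a ubiquitin-like antiviral protein, had 2.62, 18.96, 1.76 and 5.02 CPM at P25, a log2 change of 4.12, and of 3.01 without that ganglion. The summed level of the list was 159.7, 178, 142 and 148 CPM at E14 and 349, 783, 336 and 458 CPM at P25. Without P25 replicate 2 the list's median was 3.01 and 19 genes were higher.

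Vessel genes split. Of 19 endothelial genes, 10 fell and 6 rose (median -1.14). Plvap, a diaphragm protein of leaky vessels, fell from 46.2 ± 16.1 to 8.41 ± 2.603 CPM, and the pan-endothelial genes Pecam1 and Cdh5 fell from 53.8 ± 7.94 to 12.98 ± 1.3996 CPM and from 81.3 ± 7.46 to 22.4 ± 6.97 CPM. Cldn5, the tight junction protein of barrier vessels, rose from 6.84 ± 2.56 to 18.8 ± 5.38 CPM. Slco1a4, a transporter of barrier vessels, had no counts at E14 and 7.16 ± 0.883 CPM at P25, at least 188-fold higher. Of 9 mural cell genes, 4 rose and 3 fell (median 0.65), and the smooth muscle gene Tagln rose from 2.44 ± 0.466 to 26.4 ± 3.34 CPM. Of 24 fibroblast and matrix genes, 5 rose and 11 fell (median -0.42). Tnc, tenascin of growing tissue, fell from 156 ± 38.6 to 6.05 ± 1.52 CPM and the fetal fibrillin Fbn2 from 49.6 ± 12.4 to 3.61 ± 0.332 CPM, while decorin (Dcn) rose from 20.1 ± 11.03 to 255 ± 23.9 CPM. Agrn, the heparan sulfate proteoglycan agrin, fell from 948 ± 523 to 86.6 ± 18.02 CPM, 1 of 10 basement membrane genes of 21 that fell, beside 7 that rose (median -0.37; 29.8% of all genes fell and 29.7% rose).

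Genes known from blood, cartilage, muscle, pigment cells and epithelium were measured beside those of the ganglion. Of 11 globin and erythroid genes, 10 fell and 1 rose (median -4.24, or -4.09 with the genes at 0 at their lower bounds). Their sums were 1566, 1495, 896 and 1383 CPM at E14 and 135, 138, 99.3 and 161 CPM at P25. The adult beta globin Hbb-bt fell too, from 155 ± 45.9 to 8.22 ± 2.35 CPM, so embryonic and adult globins both fell. Globin genes are close copies and their read shares are uncertain. Col2a1, the main collagen of cartilage, had 178, 365, 263 and 192 CPM at E14 and 8.29, 10.03, 10.9 and 10.8 CPM at P25, a change of -4.64 on the log2 scale (SE 0.26, adjusted p = 1.20e-11), and 3 of 8 cartilage and bone genes fell while 4 rose. The sums of that list were 187, 373, 269 and 199.6 CPM at E14 and 26.8, 23.1, 24.8 and 22.4 CPM at P25, and their part in the falls of matrix genes was not tested. Skeletal muscle genes summed to 10.5 to 21.9 CPM at E14 and 8.64 to 13.6 CPM at P25, and genes of central nervous system neurons to 4.68 to 11.7 and 1.08 to 2.51 CPM. Melanocyte genes summed to 2.39 to 4.91 CPM at E14 and 22.9 to 42.0 CPM at P25, and epithelial genes to 45.3 to 75.2 and 221 to 334 CPM. Most of the epithelial sum was Cdh1, E-cadherin, which Schwann cells also make, and which rose from 53.1 ± 9.06 to 282 ± 52.5 CPM.

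Ratios of related genes were taken within each library, so that they do not depend on how a library was scaled. In 28 pairs, a gene known as the fetal or general form was set against one known as the mature or neural form, and the log2 ratio of their counts was compared between ages over the 8 ganglia. Read counts were not corrected for transcript length, so the ratio's own level is not meaningful and only its shift between ages is described. The part of each library's GC content and length bias in these shifts was not tested. The 4 P25 ratios did not overlap the 4 E14 ratios in 21 of 28 pairs, in 19 of them towards the mature form, where 50.2% of single genes did not overlap. The pairs were chosen with results of these data known, so the shifts are a description with no test. Scn8a over Scn3a, the nodal Nav1.6 channel over the embryonic Nav1.3, went from 0.82 ± 1.28 to 7.19 ± 0.75 (log2 ratio, SD, n = 4; KO shift 6.096). Without E14 replicate 2 this shift was 6.99 in place of 6.37. Tuba4a over Tuba1a, 2 alpha-tubulins, went from -8.81 ± 0.12 to -2.81 ± 0.21 (log2 ratio, SD, n = 4; KO shift 6.21). Lmna over Lmnb1, the lamin of stiff nuclei over a lamin of young cells, went from -0.27 ± 0.34 to 5.06 ± 0.48 (log2 ratio, SD, n = 4; KO shift 5.43), and Vamp1 over Vamp2 went from -4.71 ± 0.31 to -0.05 ± 0.33 (log2 ratio, SD, n = 4; KO shift 4.88). Nefh over Nefm, the heavy over the medium neurofilament subunit, went from -3.696 ± 0.65 to 0.33 ± 0.08 (log2 ratio, SD, n = 4; KO shift 3.99). In these 5 pairs all P25 ratios lay above all E14 ratios.

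The metabolic pair Eno2 over Eno1, neuronal over general enolase, went from -2.78 ± 0.23 to 0.89 ± 0.16 (log2 ratio, SD, n = 4; KO shift 3.95), and the glutamate transporters Slc17a7 over Slc17a6 from -0.66 ± 1.6 to 2.07 ± 0.26 (log2 ratio, SD, n = 4; KO shift 3.32). The latter shift was 2.72, and 3.48 without E14 replicate 2. The growth factors Igf1 over Igf2 shifted by 3.16, although Igf1 itself fell (log2 fold change -1.68), since Igf2 fell by more. Ezh1 over Ezh2 shifted by 4.11. The opposite direction was taken by 2 pairs, among them Slc12a5 over Slc12a2. Slc12a5 over Slc12a2, the chloride exporter KCC2 over the importer NKCC1, shifted by -1.803, from -4.47 ± 0.88 to -6.27 ± 0.41 (log2 ratio, SD, n = 4; KO shift -2.85). The exporter Slc12a5 had 243 counts over the 8 ganglia and Slc12a2 had 10158.

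**Figure D4:**
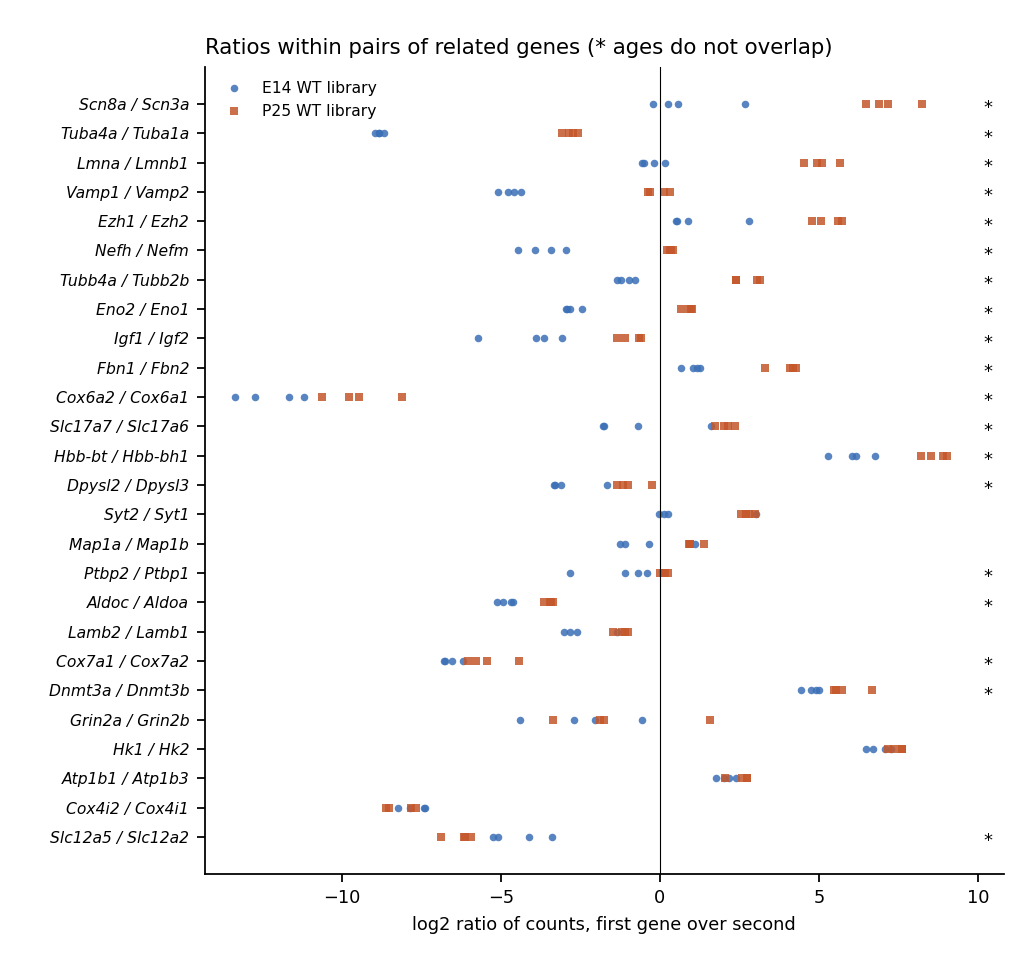
Log2 ratio of counts (x axis) of 26 of the 28 pairs of related genes (rows, the mature or neural form over the fetal or general form), in each E14 (blue circles) and P25 (orange squares) wild-type ganglion, sorted by shift. Asterisks mark the 19 of these in which the ages do not overlap: 18 moved right, towards the mature form, and the pair Slc12a5 over Slc12a2 moved left.

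The Nogo-A KO ganglia, set beside the wild type, went through a stage change of like size by the number of genes called. From E14 to P25, 9032 genes were called in KO ganglia (59.8% of the genes tested), 3682 of them past 2-fold (24.4%). Of the 3645 genes past 2-fold in wild type, 3641 had the same sign in KO and 3055 were also past 2-fold, which is 83.8% of the wild-type and 83.0% of the KO calls. The wild-type and KO changes are 2 contrasts of 1 fit, which have no libraries in common and share 1 estimate of the spread. Across genes, the log2 fold changes of the 2 genotypes correlated at r = 0.951, a description over genes that are not independent replicates. Mbp changed by 5.85 in wild type and 6.17 in KO, Nefh by 5.08 and 4.91, Trpm8 by 9.01 and 9.04, and Dcx by -7.39 and -6.95. Values were further apart for Top2a, at -4.096 in wild type and -3.09 in KO, and for Mki67, at -2.304 and -0.06. List medians in wild type and KO were close for peripheral myelin genes (5.87 and 5.91). They were further apart for endothelial (-1.14 and -0.02), fetal growth (-2.10 and -1.17), immediate early (0.66 and 1.71) and interferon-stimulated genes (3.46 and 2.46). Differences between list medians were not tested.

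The difference between the stage changes was tested as an interaction. No gene passed an adjusted p of 0.05 in edgeR (0 of 15109; lowest adjusted p 0.262), and 647 had an unadjusted p under 0.05, fewer than the 755 expected by chance. DESeq2 called 8. The 3 genes of lowest p were Ryr1, a calcium release channel, Txnip, a glucose-regulated inhibitor of thioredoxin, and the transcript A930004J17Rik. Ryr1 changed by -1.44 in wild type and 1.04 in KO, Txnip by -1.07 and 0.12, and A930004J17Rik by -1.72 and 2.01, each with an adjusted p of 0.262 for the difference. A p that misses the threshold does not show that the genotypes matured alike.

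**Figure D5:**
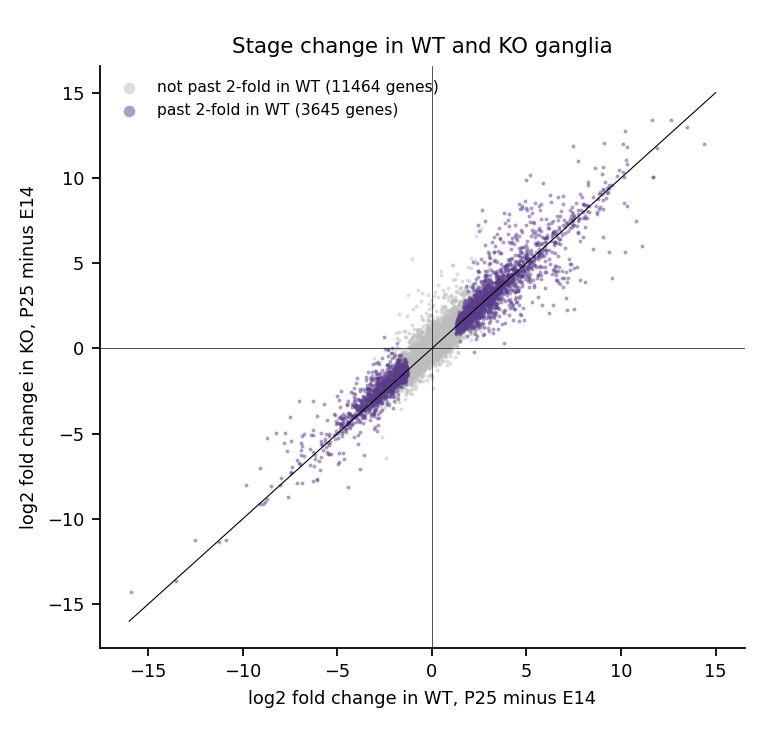
Log2 fold change, P25 minus E14, of each tested gene in wild-type (x axis) and Nogo-A KO ganglia (y axis), with the line of equality. The 3645 genes past 2-fold in wild type are purple and the rest grey, and 3641 of the purple points have the same sign in both genotypes.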

How the data were processed

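RNA of 16 single trigeminal ganglia was sequenced from stranded mRNA libraries, per the labels' protocols. The values used are estimated counts per gene that the authors deposited, 1 table a library. Per the submitters' processing notes, reads were handled with kallisto 0.46 and fastp 0.20.0 on GRCm39, and DESeq2 1.32.0 is also listed. The sources used here give neither the strand setting nor the annotation. Counts were whole numbers. Transcript-based estimates divide reads among close copies, so globin, MHC and ribosomal genes are uncertain.

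Groups came from the labels. Genes were filtered by filterByExpr, scaled by TMM and tested with edgeR 4.0.16 (quasi-likelihood, all 16 libraries in 1 fit, Benjamini-Hochberg adjustment over 15109 genes), with glmTreat for changes past 2-fold and a contrast of contrasts for the interaction. Gene symbols came from a name table. Pair ratios used counts plus 0.5 and are described over the 8 wild-type libraries; a planned permutation test of them is not reported, since the pairs were chosen with results known. DESeq2 1.42.0 in R 4.3.3 was an alternative. The test between ages in wild type was also run on simulated counts, and the outcome is not reported here. Promoters came from RefSeq (GRCm38.p6). Other gene positions are not printed, as the annotation at hand was of another build than the counts.

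The comparison, the 54 gene lists and the pairs were chosen with earlier results of these data known, so lists are described by counts and medians, with no test. Named genes are the 10 largest rises and falls past 2-fold at a mean of at least 10 CPM without overlap, set anchor genes of each list, up to 2 called members a list and direction at a mean of at least 1 CPM, the 5 most abundant genes with a 95% interval within 0.5 of 0, the pair genes and the 3 of lowest interaction p. Some were summarised, and some genes and 2 pairs are not reported here. Bounds for genes at 0 use a floor of 3 counts over the group. Depth was 16442312 to 29562379 counts per wild-type library, and replicates differed by more than sampling noise.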

Additional observations from a re-analysis of the deposited data

Results flagged for a closer look

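In each group of 4 ganglia, the levels of the genes and gene lists named above were searched for 1 value far from the other 3. Of 362 groups of values, 32 held such a value (8.84%), where chance gives about 1 in 20. E14 replicate 2, the ganglion with the lowest correlations to the others of its age, held 14 of the 32, and P25 replicate 4 held 8.

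E14 replicate 2 was above the other 3 E14 ganglia in 10 genes. It had 1043 CPM of Cacna1h (the others 337 to 420.0), 660.5 CPM of Plxna3 (258 to 311), 1112 CPM of Ret (684 to 752) and 621 CPM of Sox10 (298 to 351). It also had 154 CPM of Cntnap1 (47.9 to 63.6), 77.8 CPM of Tunar (50.9 to 53.6), 52.8 CPM of Piezo1 (23.5 to 24.7), 50.4 CPM of Rtn4r (21.8 to 26.7), 11.9 CPM of Cbx7 (3.90 to 4.29) and 7.93 CPM of Scn4b (1.76 to 2.48). It was below the others in 3 genes, with 5.37 CPM of Ezh2 (13.4 to 14.6), 7.44 CPM of Grik1 (16.4 to 18.2) and 2.07 CPM of Mbnl1 (14.1 to 16.1). Its summed central glia genes were 32.8 CPM (25.8 to 26.8).

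Single low counts made 3 of the values: Mog was 0.138 CPM in E14 replicate 1, and Mrgprd and Tmem233 were 0.0569 CPM each in E14 replicate 3, while the other 3 ganglia had none.

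P25 replicate 4 was lower than the other P25 ganglia in 7 genes. It had 725 CPM of Scn10a (the others 1306 to 1369), 482 CPM of Scd1 (749 to 795), 117 CPM of Grik1 (147 to 149), 19.7 CPM of Dnmt3a (35.1 to 36.4), 11.2 CPM of Cacna1i (19.01 to 20.45), 3.79 CPM of Tnc (6.53 to 6.96) and 0.154 CPM of A930004J17Rik (0.969 to 1.08). It was higher in Eno1, at 1339 CPM (890.2 to 926).

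P25 replicate 3 had 219 CPM of Dcn (264 to 270.5), 89.6 CPM of Hepacam (59.2 to 61.6) and 73.3 CPM of Nes (51.4 to 54.4). P25 replicate 2 had 50.6 CPM of Ifit3 (4.43 to 6.99), 49.7 CPM of Klf9 (39.8 to 41.1) and 236 CPM of Csrp1 (307 to 316). P25 replicate 1 had 0.845 CPM of Ccnb1 (0.348 to 0.431).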

How the results depend on the processing

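The 9001 genes called between ages stayed between 6554 (a filter of at least 10 CPM in 4 libraries, 10635 genes) and 10378 (offsets for GC content and transcript length, chosen after seeing the data). Leaving out 1 library gave 8408 to 9688 calls and 3447 to 3770 past 2-fold, the 8 wild-type libraries alone 7687, a covariate of Y-linked counts 8699, the E14 libraries with the number 4 summed 9705, and DESeq2 9267. No gene called in the main analysis changed sign in any of these. The offsets were fitted to deviations from each group's mean, so they could not remove a GC or length bias that followed age. Past 2-fold, the strict filter called 2245 genes, of which 2222 were among the 3645 (2300 of the 3645 were tested there), and DESeq2 called 2909. The share higher among calls moved by less than 10 percentage points and the median of all genes lay between -0.0846 (library totals alone) and 0.0774 (without E14 replicate 4). KO calls ran from 6507 to 10480, and the E14 KO libraries that share a number were not summed in any setting. The interaction stayed at 0 calls in edgeR in every setting run, and DESeq2 called 8, a difference whose cause was not tested.

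Replicate numbers did not pair the libraries: deviations of same-numbered wild-type libraries correlated at -0.333 to 0.271. With the number as a block, 8679 genes were called, 3503 past 2-fold, 8744 in KO and 0 in the interaction.

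Among single values, Piezo2, not called, ran from -0.26 to 0.053 when 1 library was left out, above 0 without E14 replicate 3 or P25 replicate 4. Pou4f1, not called, ran from -0.097 to 0.11, above 0 without E14 replicate 3 or P25 replicate 2, and was 0.020 without a low-count filter and 0.006 with the number-4 libraries summed. With offsets for GC content and length, which leave a bias that followed age in place, Rtn4 was higher at P25 (0.52, adjusted p = 0.012). A pseudocount of 5 in place of 0.5 gave 19 pairs without overlap in place of 21 and turned Hbb-bt over Hbb-bh1 to -0.5001. Genes with few counts in 1 group are limited by depth: their ratios carry wide counting intervals, which cover counting error only.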

Other observations

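Genes induced in sensory neurons after axotomy did not rise or fall together from E14 to P25. Of 11 tested, 6 rose and 4 fell, with a median log2 fold change of 1.33. Serpinb1a, a protease inhibitor, rose from 0.228 ± 0.159 to 64.9 ± 12.5 CPM and the LIM protein gene Csrp1 from 40.2 ± 10.6 to 292 ± 37.6 CPM. The stress factor Atf3 rose from 2.07 ± 0.916 to 5.39 ± 0.905 CPM. The other axotomy genes Gap43, Sox11 and Gal, described above, fell.

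Of 24 immediate early genes, 10 rose and 3 fell (median 0.66). The number lower was 1 without E14 replicate 1, E14 replicate 2, P25 replicate 2 or P25 replicate 3. Egr3 rose from 1.25 ± 0.428 to 10.3 ± 2.15 CPM, and Egr2, counted here too, is the myelination factor given above. Dusp6, a phosphatase of MAP kinases, fell from 38.1 ± 3.99 to 22.03 ± 3.55 CPM. The time from death to RNA extraction is not stated in the labels, and its part in these values was not tested.

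Smaller lists of other cells gave these counts. Of 13 genes of lymphocytes, neutrophils and mast cells, 5 were tested, and these passed the filter through P25, so their direction was set by the filter. Of 6 melanocyte genes 3 were tested and 2 rose, and of 12 epithelial genes 6 were tested and 4 rose, or 2 without E14 replicate 3. Of 16 skeletal muscle genes 8 were tested, 3 rose and 4 fell. Of 7 genes of non-myelinating Schwann cells, 3 rose and 2 fell.

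The structure of genes past 2-fold was set beside that of all genes tested in the GRCm38 annotation, with no test of the differences. Median transcript length was 3120 bases for genes higher at P25, 3626 for genes lower and 3411 for all genes tested, and median GC content was 50.1%, 52.7% and 50%. The share of protein-coding genes was 98.7%, 98.2% and 98.1%.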
